A study of Mus musculus with 11 samples.

Results

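The mitotic cell cycle genes described here are 33 genes whose products drive the entry into mitosis, the building of the spindle, the separation of chromosomes and the division of the cell. They were chosen by gene symbol from a fixed list of names, and all 33 were found among the 38406 gene symbols of the table. The values come from RNA-seq of back skin, with 11 libraries from female mice of the C57BL/6 strain aged 8 to 10 weeks. The 5 wild-type mice and the 6 Trex2 KO mice, which lack the DNA exonuclease Trex2, were all treated with Imiquimod, as 125 mg of 5% cream on the shaved back on each of 4 days, and skin was taken 24 hours after the last dose. Imiquimod is an agonist of the receptor TLR7, and its cream produces psoriasis-like skin inflammation with a thickened epidermis in mice. Untreated skin was not analysed here, so every value compares the genotypes within treated skin. Wild-type replicates carry the numbers 2 to 6, and knockout replicates the numbers 7 to 12.

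Mitotic genes are transcribed in waves. The DREAM complex, which contains the MuvB core, keeps them silent in resting cells, and in cycling cells the MuvB core joins the factors Mybl2 and Foxm1 to switch them on in the G2 and M phases. In skin, dividing cells are found mainly in the basal layer of the epidermis and in the hair follicle, and activated immune cells also divide. In RNA from whole skin, a difference in the number of dividing cells and a difference in the RNA that each of them holds cannot be told apart.

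The libraries held 1208896 to 15557862 counted reads, with wild-type replicate 3 the shallowest and knockout replicate 12 the deepest. Values are normalized counts, in which the authors divided each gene's count by 1 size factor per library. Trex2 had 1125 to 2196 normalized counts in the wild-type libraries and 0.794 to 3.47 in the knockout libraries, as the genotype on each label would have it. Keratinocyte and fibroblast markers were present in every library, as whole skin should show: the summed level of 14 basal keratinocyte genes was at least 63863 normalized counts, and that of 8 fibroblast genes at least 45417.

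The starts of mitotic genes carry sequence features that the choice by name did not use. The MuvB core binds a short element near the start of such genes called the CHR, with the letters TTTGAA or TTTAAA, and the factor NF-Y binds CCAAT boxes. RefSeq promoter windows on GRCm38.p6, from 250 bases before to 50 bases after the annotated start, were matched by symbol for 28 of the 33 genes. They hold 30 windows, since some genes have more than 1 start. Both strands were searched, so TTTGAA was also counted as TTCAAA and CCAAT as ATTGG, and the motifs may overlap each other. The upstream stretches of 4 genes are printed because they show the arrangement most plainly and because these genes are described with their values below. Each runs 5′ to 3′ on the strand of the gene and ends at the base before the RefSeq start, and capitals mark the CHR and CCAAT letters. By the GENCODE positions given below, the last 26 bases of the Cdk1 stretch and the last 9 of the Cdc20 stretch lie inside the gene. These bases hold the last TTTGAA of Cdk1 and the last CCAAT of Cdc20.
Cdc20, chr4:118437344-118437463, minus strand: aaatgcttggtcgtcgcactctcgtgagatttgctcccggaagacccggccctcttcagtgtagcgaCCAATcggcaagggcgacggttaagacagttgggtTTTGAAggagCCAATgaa
Cdk1, chr10:69352913-69353032, minus strand: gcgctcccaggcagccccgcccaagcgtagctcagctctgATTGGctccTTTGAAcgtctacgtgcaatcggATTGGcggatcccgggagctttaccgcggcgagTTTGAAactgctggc
Top2a, chr11:99024190-99024309, minus strand: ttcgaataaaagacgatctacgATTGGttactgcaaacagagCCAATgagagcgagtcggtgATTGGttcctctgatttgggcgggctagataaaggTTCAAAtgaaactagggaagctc
Kif11, chr19:37376262-37376381, plus strand: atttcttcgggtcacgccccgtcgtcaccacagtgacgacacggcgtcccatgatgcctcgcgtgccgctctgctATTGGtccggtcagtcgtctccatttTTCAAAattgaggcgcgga

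TTTGAA or TTTAAA stood in 27 of the 30 windows of mitotic genes (90%), against 27.6% of all 32851 RefSeq windows of the same length. Within 50 bases on either side of the start, the same letters stood in 24 of the 30 (80%), against 8.28% of all windows. A CCAAT box stood in 26 of the 30 (86.7%), against 37.4% of all windows, and 2 or more boxes stood in 19 of the 30 (63.3%), against 11.7%. Both a CHR within 50 bases of the start and a CCAAT box were found in 23 of the 30 (76.7%), against 3.35% of all windows. These matches are a description of letters, not of bound sites.

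All 33 mitotic genes had a higher mean log2 level in knockout than in wild-type skin, but none passed the test. The log2 fold changes, on the scale of log2(normalized count + 1), ran from 0.05 for Birc5 to 0.93 for Kif4, with a median of 0.36, a 1.28-fold difference. Over all 13215 genes tested the median was 0.01, and 51.0% of log2 fold changes were above 0. The 33 genes are transcribed together and are not independent of each other. At an adjusted p of 0.05 (limma, Benjamini-Hochberg over all genes tested), 0 of the 33 genes passed, against 0.0151% of all genes tested. The lowest adjusted p among them was 0.108 in limma, and edgeR on reads recovered from the table also called 0 (0.0303% of all genes). At an unadjusted p under 0.05, 14 of the 33 were higher and 0 lower in knockout, where 12.9% of all genes tested were higher and 11.5% lower. DESeq2 on the recovered reads called 3 of the 33 higher, Anln, Cdc20 and Kif4, against 2.35% of all genes. The same 3 were called higher by limma without wild-type replicate 4, where 3.5% of all genes were called higher. That replicate held the highest wild-type level of Anln and Kif4, though not of Cdc20. Leaving it out was therefore bound to raise the fold changes of Anln and Kif4.

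The difference was largest in 2 knockout mice. Knockout replicates 9 and 12 held the highest value of 31 of the 33 genes (13 in replicate 9 and 18 in replicate 12), and the remaining 2, Kif20a and Kif2c, were highest in wild-type replicate 3. The median over the 33 genes of the log2 distance from the wild-type mean was 0.75 in knockout replicate 9 and 0.84 in replicate 12. It was 0.37 in replicate 10, 0.16 in replicate 7, and 0.03 in both replicate 8 and replicate 11. Without replicates 9 and 12 the median log2 fold change of the 33 genes was 0.14. Of the 33, 24 were above 0 and 9 below, against 51.3% of all genes above 0. Since these libraries held the highest values, leaving them out was bound to lower the median, and no other pair was left out for comparison. The median was 0.28 without replicate 9 alone and 0.26 without replicate 12 alone. By role, the medians with all libraries were highest for cytokinesis (0.70, 2 genes), the spindle checkpoint (0.55, 3 genes) and kinetochores (0.52, 3 genes). They were lowest for the destruction machinery (0.10, 3 genes) and cyclins with CDK1 (0.15, 4 genes). Destruction genes ran from 0.07 to 0.68, and the roles were not tested against each other. Without replicates 9 and 12 the cytokinesis median was 0.52 and the destruction median −0.11.

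**Figure D1:**
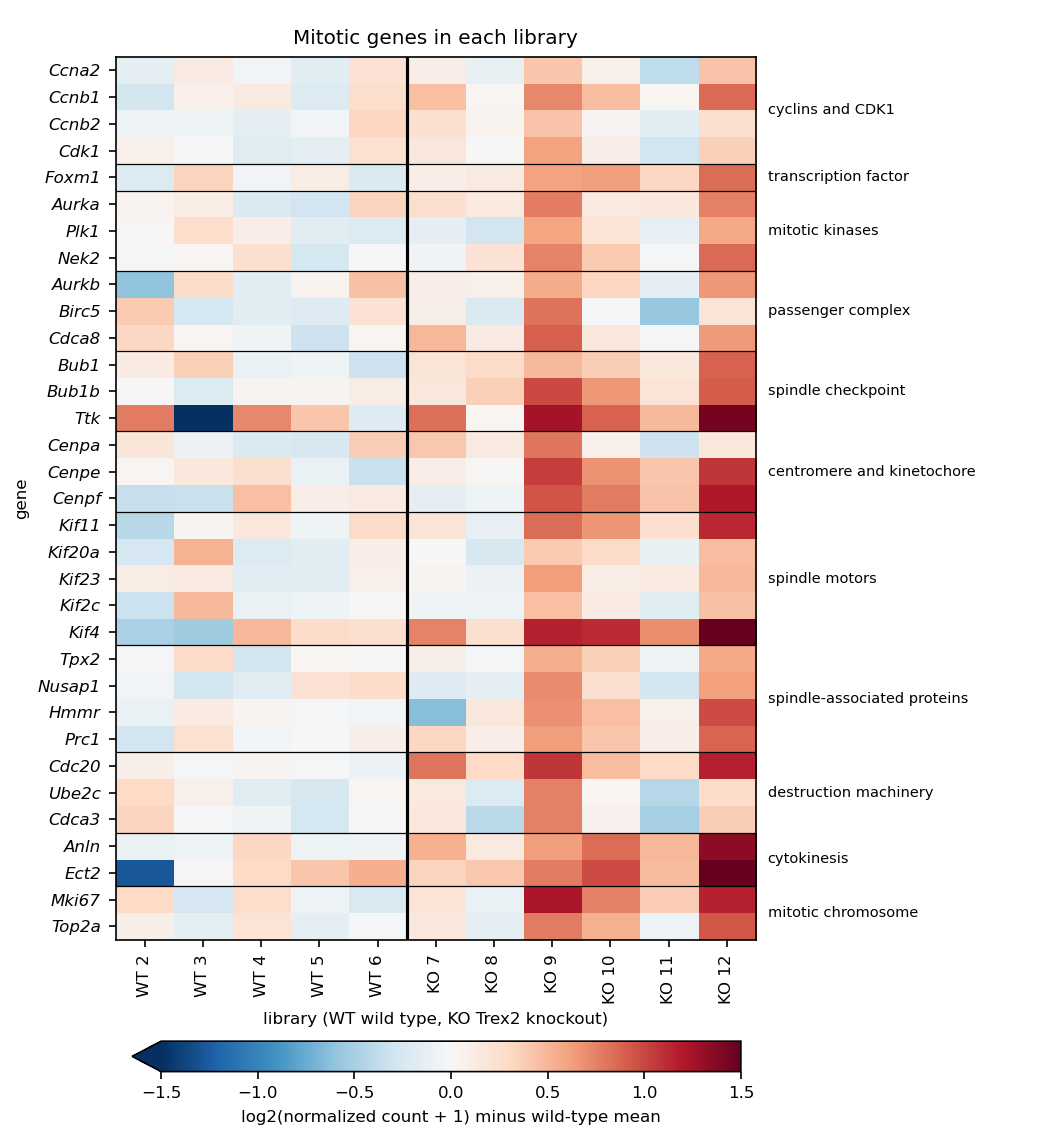
Each row is a mitotic gene, grouped by role, and each column a library; colour gives log2(normalized count + 1) minus the wild-type mean of that gene. Knockout replicates 9 and 12 are the 2 darkest red columns and hold the highest value of 31 of 33 genes. Knockout replicates 8 and 11 look like the wild-type columns. Ttk in wild-type replicate 3 lies below the colour scale, and Kif4 and Ect2 in knockout replicate 12 lie above it.

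Cyclins and the kinase CDK1 form the engine of mitotic entry. Ccnb1, the cyclin B1 that activates CDK1 at mitosis (ENSMUSG00000041431.16, chromosome 13, 100778650 to 100786570, GRCm38), had 145, 185, 193, 152 and 212 normalized counts in wild-type replicates 2 to 6. In knockout replicates 7 to 12 it had 241, 179, 291, 243, 180 and 318. In 4 of the 6 knockout libraries the level was above every wild-type library, and replicates 8 and 11 lay inside the wild-type range. The means were 177 ± 28.3 and 242 ± 56.5 (SD, n = 5 and 6), a log2 fold change of 0.43 (SE 0.17, limma adjusted p = 0.166). Cdk1 itself (chromosome 10, 69335146 to 69352938) had 475, 451, 397, 411 and 526 in wild type and 507, 452, 683, 480, 369 and 576 in knockout. Its groups overlapped, with the lowest value of all in knockout replicate 11, and the log2 fold change came to 0.16 (SE 0.15, limma adjusted p = 0.531). It was 0.069 without knockout replicate 9 and 0.25 without knockout replicate 11. Ccna2, the cyclin A2 of S and G2 phase, ranged from 269 to 353 in wild type and from 233 to 407 in knockout, with a log2 fold change of 0.09 (SE 0.16). Ccnb2, cyclin B2, ranged from 200.1 to 276 and from 196 to 298 (0.14, SE 0.13). Both were lowest in knockout replicate 11.

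Foxm1, the forkhead factor that drives G2 and M phase genes (chromosome 6, 128362967 to 128376146), had 74.4, 108, 83.4, 92.6 and 73.7 normalized counts across wild type and 92, 94.3, 131, 133, 106 and 154 in knockout. Knockout replicates 9, 10 and 12 were above every wild-type library, and the other 3 fell within the wild-type range. The log2 fold change came to 0.44 (SE 0.17, limma adjusted p = 0.152). Among mitotic kinases, Plk1, polo-like kinase 1 of centrosomes and kinetochores (chromosome 7, 122159439 to 122169873), had 171, 203, 181, 151 and 146 in wild type and 154, 140, 255, 194, 155 and 254 in knockout. Knockout replicates 9 and 12 exceeded the wild-type range, replicate 8 lay just under it, and the log2 fold change came to 0.14 (SE 0.18, limma adjusted p = 0.641). Leaving out 1 library moved it between 0.053 (without knockout replicate 9) and 0.22 (without knockout replicate 8), with 0.054 without knockout replicate 12 and 0.089 without wild-type replicate 6. Aurka, the centrosomal Aurora A kinase, ranged from 137 to 212 in wild type and from 185 to 287 in knockout, with a log2 fold change of 0.37 (SE 0.17). Nek2, a kinase that separates centrosomes, ranged from 62.6 to 90.1 and from 72.9 to 137 (0.36, SE 0.19). Wild-type replicate 5 was the lowest library for both.

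The chromosomal passenger complex corrects faulty attachments of chromosomes to the spindle. Aurkb, its kinase Aurora B (chromosome 11, 69045647 to 69051664), had 99.8, 185, 136, 158 and 207 normalized counts across wild type and 163, 161, 225, 191, 138 and 239 in knockout. The groups overlapped and the log2 fold change came to 0.26 (SE 0.20, limma adjusted p = 0.428), or 0.11 without wild-type replicate 2, its lowest library. Birc5, the subunit survivin (chromosome 11, 117849251 to 117855743), had 377, 239, 258, 251 and 333 in wild type and 305, 247, 506, 284, 193 and 329 in knockout. Knockout replicate 9 held the highest and replicate 11 the lowest value of Birc5, and its log2 fold change of 0.05 (SE 0.21, limma adjusted p = 0.901) was the smallest of the 33. Cdca8, the subunit borealin, ranged from 111 to 171 in wild type and from 135 to 256 in knockout, with a log2 fold change of 0.38 (SE 0.18).

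The spindle checkpoint delays anaphase until every chromosome is attached. Bub1b, its subunit BubR1 (chromosome 2, 118598211 to 118641591), had 109, 94.8, 112, 113 and 118 normalized counts across wild type and 123, 140, 218, 172, 126 and 206 in knockout. All 6 knockout libraries lay above every wild-type library, which was so for 2 of the 33 genes and for 1.02% of all genes tested. No mitotic gene (0 of 33) lay lower in every knockout library, against 1.29% of all genes. The means were 109 ± 8.68 and 164 ± 41.1 (SD, n = 5 and 6), with a log2 fold change of 0.55 (SE 0.17, limma adjusted p = 0.111). The wild-type SD of Bub1b on the log2 scale was 0.12, below the 0.20 that counting error alone would give. Ttk, the checkpoint kinase Mps1 (chromosome 9, 83834689 to 83872389), had 79.8, 13.5, 77.8, 62.6 and 40.8 in wild type and 83.3, 47.8, 112, 86.8, 65.9 and 128 in knockout. The low value of wild-type replicate 3 stands on 3 reads, the fewest of any of the 33 genes in any library and the number taken here as the limit of detection. The log2 fold change of Ttk was 0.82 (SE 0.40, limma adjusted p = 0.227). It was 0.39 without that library, 0.039 with log10 depth as a covariate and 0.27 in the 7 libraries with 3125366 to 7602952 reads. Bub1, the kinase that recruits checkpoint proteins to kinetochores, ranged from 53.3 to 85.7 in wild type and from 74.5 to 124 in knockout, where 3 of 6 libraries were above every wild-type library (log2 fold change 0.40, SE 0.17).

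Centromere and kinetochore proteins hold the chromosome to the spindle. Cenpf, a large protein of the outer kinetochore (chromosome 1, 189640606 to 189688086), had 67.1, 67.7, 118, 91.7 and 94.1 normalized counts across wild type and 78.1, 81.1, 165, 148, 116 and 199 in knockout. Knockout replicates 9, 10 and 12 exceeded every wild-type library, and the log2 fold change came to 0.52 (SE 0.25, limma adjusted p = 0.218). It was 0.0062 with log10 depth as a covariate and 0.16 in the 7 libraries with 3125366 to 7602952 reads. Cenpe, the kinetochore motor, ranged from 95.7 to 143 in wild type and from 123 to 254 in knockout, where 4 of 6 libraries were above every wild-type library (log2 fold change 0.55, SE 0.21). Cenpa, the histone variant that marks centromeres, ranged from 162 to 248 and from 154 to 337 (0.21, SE 0.19), and its lowest value was in knockout replicate 11.

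Kinesin motors and spindle-associated proteins build and shape the spindle. Kif11, the motor Eg5 that pushes spindle poles apart (chromosome 19, 37376403 to 37421859), had 171, 235, 256, 219 and 279 normalized counts across wild type and 262, 209, 409, 362, 272 and 502 in knockout. Knockout replicates 9, 10 and 12 were above the wild-type range, and the log2 fold change came to 0.49 (SE 0.21, limma adjusted p = 0.18). Kif4, a chromosome-bound motor of the anaphase midzone (chromosome X, 100625737 to 100727214), had 32.7, 31.6, 65.6, 56.3 and 54.9 in wild type and 78.1, 54.8, 104, 101, 75.6 and 143 in knockout. Of the 6 knockout libraries 5 lay above every wild-type library, and replicate 8 lay inside the wild-type range. Its log2 fold change of 0.93 (SE 0.26, limma adjusted p = 0.108) was the largest of the 33, and the DESeq2 adjusted p was 0.0433. Kif20a and Kif23 act in the central spindle and in cytokinesis, and Kif2c takes microtubules apart at centromeres. Kif20a ranged from 162 to 275 in wild type and from 163 to 266 in knockout, with a log2 fold change of 0.14 (SE 0.18). Kif23 ranged from 135 to 167 and from 142 to 234 (0.22, SE 0.15), and Kif2c from 81.7 to 144 and from 90.6 to 141 (0.11, SE 0.18). For Kif20a and Kif2c no knockout library was above the highest wild-type library.

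Tpx2, which activates Aurora A on spindle microtubules (chromosome 2, 152847964 to 152895321), had 218, 271, 183, 227 and 221 normalized counts across wild type and 236, 218, 325, 285, 212 and 331 in knockout. The same 3 knockout replicates, 9, 10 and 12, exceeded the wild-type range of Tpx2, and the log2 fold change came to 0.24 (SE 0.15, limma adjusted p = 0.335). Prc1, which bundles midzone microtubules, ranged from 241 to 347 in wild type and from 318 to 542 in knockout, where 4 of 6 libraries were above every wild-type library (log2 fold change 0.41, SE 0.16). The microtubule binder Nusap1 ranged from 104 to 152 and from 103 to 206 (0.16, SE 0.20). Hmmr, a spindle-associated hyaluronan receptor with a log2 fold change of 0.29 (SE 0.23), had its lowest value in a knockout library, replicate 7 with 85 normalized counts, and its highest in knockout replicate 12 with 262, while wild type held 123 to 144.

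Proteins of the destruction machinery end mitosis by marking cyclins and securin for degradation. Cdc20, which switches on the anaphase-promoting complex (ENSMUSG00000006398.15, chromosome 4, 118432901 to 118437352), had 200, 185, 193, 186 and 177 normalized counts across wild type and 328, 231, 397, 260, 232 and 424 in knockout. It is the other gene whose groups did not overlap. Wild-type levels of Cdc20 spread little (188 ± 8.54, SD, n = 5), and knockout levels spread more (312 ± 84.6, SD, n = 6). The wild-type SD of Cdc20 on the log2 scale was 0.07, below the 0.15 that counting error alone would give. The log2 fold change came to 0.68 (SE 0.17, limma adjusted p = 0.108), and the DESeq2 adjusted p was 0.0229. Without knockout replicates 9 and 12 the log2 fold change of Cdc20 was 0.46. Ube2c, the ubiquitin-conjugating enzyme that works with the same complex, stood at a log2 fold change of 0.10 (SE 0.19) with 433 to 632 in wild type, against 382 to 864 in knockout. Cdca3, which promotes the destruction of the mitotic inhibitor Wee1 (chromosome 6, 124829547 to 124833701), had 296, 230, 226, 195 and 232 in wild type and 260, 177, 394, 245, 165 and 302 in knockout. Knockout replicates 8 and 11 were the lowest of all 11 libraries for Cdca3, and its log2 fold change came to 0.07 (SE 0.21, limma adjusted p = 0.848). The difference between Cdc20, Ube2c and Cdca3 was not tested.

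Cytokinesis genes had a median log2 fold change of 0.70 over 2 genes. Anln, the scaffold anillin of the contractile ring (chromosome 9, 22332012 to 22389188), had 174, 176, 230, 177 and 179 normalized counts across wild type and 269, 206, 289, 333, 263 and 473 in knockout. Of the 6 knockout libraries 5 lay above every wild-type library, and replicate 8 lay under the level of wild-type replicate 4. The means were 187 ± 24 and 305 ± 91.8 (SD, n = 5 and 6), a log2 fold change of 0.66 (SE 0.18, limma adjusted p = 0.108), with a DESeq2 adjusted p of 0.0359. Ect2, the exchange factor that activates RhoA for cleavage, stood at a log2 fold change of 0.75 (SE 0.31, limma adjusted p = 0.17). It had 29 to 105 in wild type, against 90.2 to 207 in knockout. The value of 29 was that of wild-type replicate 2, on 16 reads, and the other wild-type libraries held 72.2 to 105. The log2 fold change of Ect2 was 0.35 with log10 depth as a covariate and 0.51 in the 7 libraries with 3125366 to 7602952 reads.

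Mki67 and Top2a, common markers of dividing cells, act on the mitotic chromosome. Mki67, the surface layer protein Ki-67 (ENSMUSG00000031004.8, chromosome 7, 135689784 to 135716361), had 566, 384, 549, 434 and 392 normalized counts across wild type and 531, 428, 1077, 772, 599 and 1019 in knockout. Knockout replicates 9 and 12 stood far above the other 9 libraries, replicates 10 and 11 were also over the wild-type range, and replicates 7 and 8 fell inside it. The means were 465 ± 86.9 and 738 ± 266 (SD, n = 5 and 6), a log2 fold change of 0.60 (SE 0.23, limma adjusted p = 0.146) that was 0.31 without replicates 9 and 12. Top2a, the topoisomerase that untangles sister chromatids (chromosome 11, 98992943 to 99024189), had 639, 546, 692, 546 and 595 in wild type and 673, 541, 1030, 869, 568 and 1143 in knockout. Its highest values were again in knockout replicates 9, 10 and 12, and its log2 fold change came to 0.36 (SE 0.19, limma adjusted p = 0.26).

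**Figure D2:**
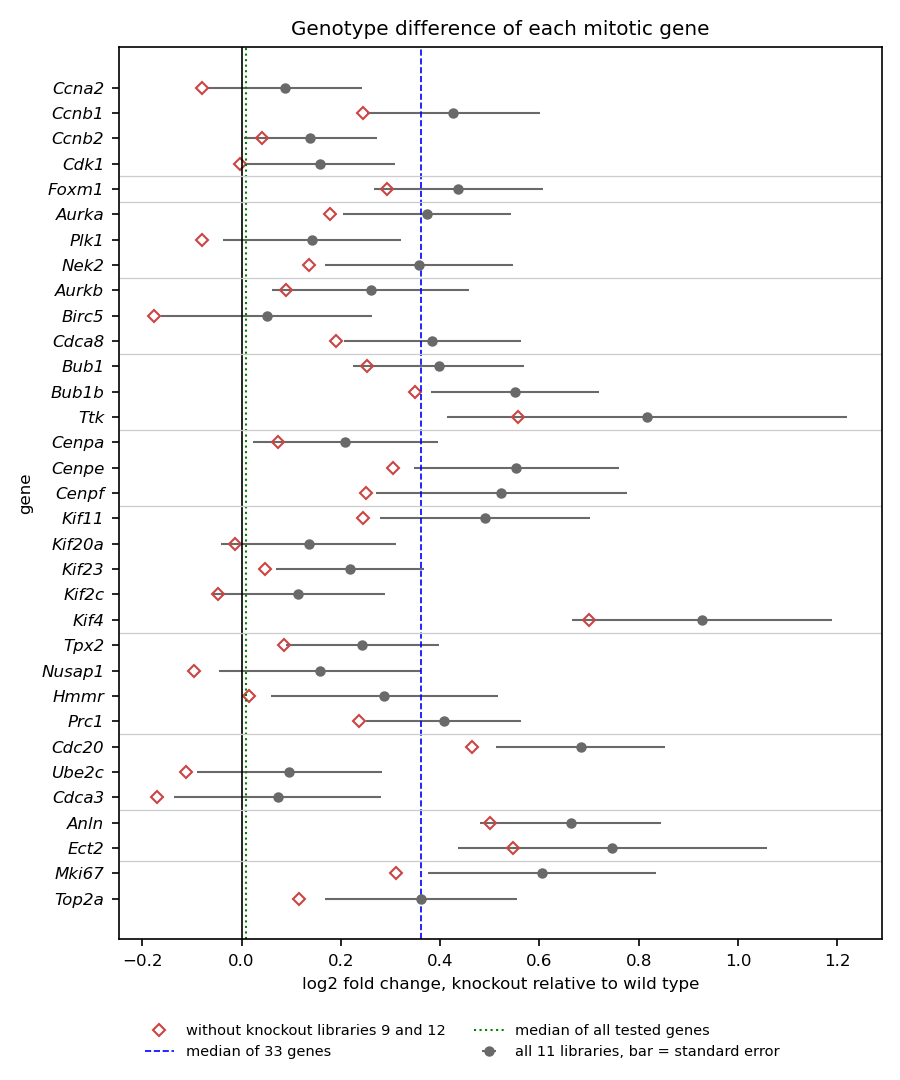
Points give the log2 fold change of each mitotic gene, knockout relative to wild type, with its standard error as a bar; open diamonds give the value without knockout replicates 9 and 12. All 33 points lie above 0 with a median of 0.36 (dashed line), and 9 diamonds lie below 0, while the median of all tested genes is 0.01 (dotted line).

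Levels among the 33 genes covered a wide range. Per kilobase of annotated exon, the mean over all libraries was highest for Ube2c, with 209 normalized counts per kb, followed by Ccnb2 with 153 and Cdc20 with 137. It was lowest for Cenpf at 7.22, Kif4 at 13.2 and Ttk at 14.7 per kb. Not scaled by length, the means ran from 72.5 normalized counts to 713, so all 33 genes passed the minimum mean of 10 for testing.

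The spread between mice was wider in knockout. The SD of log2(normalized count + 1) was larger in knockout than in wild type for 27 of the 33 genes, against 46.6% of all genes tested. The median SD over the 33 genes was 0.38 in knockout and 0.23 in wild type, and over all genes tested the medians were 0.31 and 0.32. Counting error alone would give a median SD of 0.09 in the deeper knockout libraries and 0.15 in wild type. The SD was above its counting error for 33 of the 33 genes in knockout and for 28 in wild type. A score, the mean over the 33 genes of the log2 level minus the gene's own mean, averaged −0.20 ± 0.06 over wild-type and 0.17 ± 0.34 over knockout libraries (SD, n = 5 and 6). It ran from −0.25 to −0.12 in wild type and from −0.18 to 0.59 in knockout, with replicates 9 and 12 at 0.55 and 0.59.

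Other gene groups moved with the same libraries. The score of 14 basal keratinocyte genes was 0.85 in knockout replicate 9 and 1.16 in replicate 12, the 2 highest values, and that of 10 suprabasal genes 2.45 and 2.15. All 14 basal and all 10 suprabasal genes had log2 fold changes above 0 (medians 0.87 and 2.05), against 51.0% of all genes. In limma with all libraries 0 of either list passed. Without wild-type replicate 4, limma called 4 basal and 5 suprabasal genes higher, against 3.5% of all genes. Without knockout replicates 9 and 12 the basal and suprabasal medians were 0.51 and 1.14. The summed level of the basal genes was 63863 to 178996 normalized counts across wild type and 115508 to 340526 in knockout, and that of the suprabasal genes 5834 to 23906 and 9018 to 55740. Neutrophil genes had their lowest scores in the same libraries, −1.21 in replicate 9 and −1.80 in replicate 12, with 10 of 10 log2 fold changes below 0 and sums of 48101 to 114701 in wild type, against 16829 to 85068 in knockout. Monocyte and macrophage (−0.65 and −0.77), endothelial (−0.81 and −0.57), skeletal muscle (−0.50 and −0.70), fibroblast (−0.33 and −0.26) and neutrophil precursor (−0.86 and −1.42) genes also had their lowest scores in replicates 9 and 12. Hair follicle genes had scores of 0.46 and 0.75 in replicates 9 and 12. Only 4 of 16 follicle genes were tested, all 4 above 0, their summed level was 481 to 1390 in wild type, against 633 to 1552 in knockout, and the hair keratin Krt31 was listed at 0. The part of these cell types in the mitotic gene values was not tested. Wild-type replicate 4 had the highest basal (0.38) and suprabasal (1.30) scores of its group, and its mitotic score of −0.16 lay within the wild-type range.

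**Figure D3:**
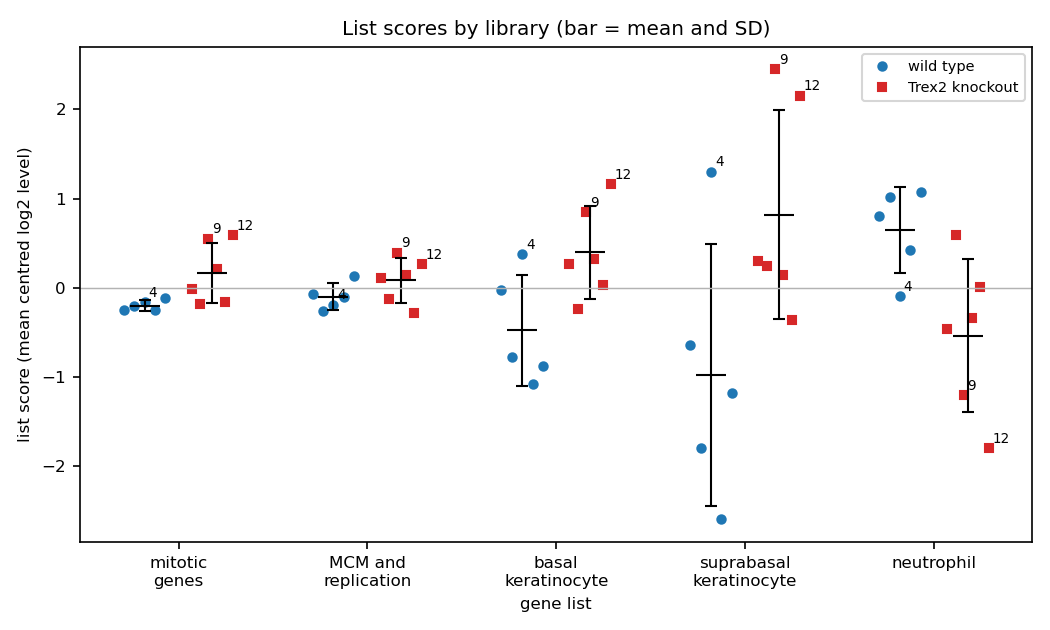
Points are list scores (mean log2 level of a list's tested genes, with the gene's own mean subtracted) for wild type (circles) and Trex2 knockout (squares), with group mean and SD as bars and replicates 4, 9 and 12 numbered. The mitotic scores of wild type lie between −0.25 and −0.12, and knockout replicates 9 and 12 are highest in the mitotic and keratinocyte lists and lowest in the neutrophil list.

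The remaining cell lists were read for context. T and natural killer cell genes had 3 of 5 tested members below 0, with a median log2 fold change of −1.10, and monocyte and macrophage genes 10 of 12 below 0, with a median of −0.51. Fibroblast genes (8 of 8), endothelial genes (7 of 7), skeletal muscle genes (7 of 8) and adipocyte genes (6 of 8) were mostly below 0, with medians of −0.30, −0.37, −0.32 and −0.22. Few markers of B and plasma cells (2), erythroid cells (2) and neutrophil precursors (1) were abundant enough to be tested, and all of these were below 0. In limma with all libraries 0 genes of any cell list passed, and DESeq2 called 3 T and natural killer cell genes, 3 neutrophil genes, 1 monocyte gene and 1 fibroblast gene lower, 4 basal genes and 1 suprabasal gene higher, and 0 in the other cell lists. Among all genes DESeq2 called 292 higher (2.35%) and 284 lower.

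Other lists of cell cycle genes are given beside the 33 genes, and 0 of their genes passed in limma with all libraries. Their medians with all libraries were below the 0.36 of the 33 genes, but the order depended on the setting. Without knockout replicates 9 and 12 the DREAM and E2F factors (0.27), augmin (0.16), CDK1 switch (0.16) and condensin (0.15) lists had medians above the 0.14 of the 33 genes, while the kinetochore (0.05), replication (0.08), G1 and S (0.09) and anaphase-promoting complex (−0.06) lists had medians below it. With the length trend removed, the CDK1 switch list stood at 0.36 and the 33 genes at 0.33. Without wild-type replicate 4, limma called 3 DREAM and E2F factors and 1 gene in each of the kinetochore, condensin and augmin lists higher, and 1 CDK inhibitor lower. Of 29 other kinetochore and checkpoint genes 22 had log2 fold changes above 0, with a median of 0.21. Zw10, which brings the motor dynein to kinetochores, stood at 0.62 (SE 0.14), the value of smallest p among them. DESeq2 called 1 of the 29 higher, against 2.35% of all genes. Casc5, the kinetochore scaffold also named Knl1, stood at 0.84 (SE 0.25). Of 16 condensin and cohesin genes 15 were above 0, with a median of 0.24, and Ncapg2, a condensin II subunit, stood at 0.70 (SE 0.23). Augmin and gamma-tubulin genes, which nucleate spindle microtubules, were above 0 in 12 of 15 with a median of 0.22, and Tubgcp4 stood at 0.54 (SE 0.17).

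Regulators of mitotic gene transcription and of CDK1 were also mostly above 0, where 51.0% of all genes tested were. Of 19 DREAM, MYB-MuvB and E2F factors 12 were above 0, with a median of 0.23, and DESeq2 called 2 higher, against 2.35% of all genes. Mybl2, the B-MYB partner of the MuvB core, had 85.8 ± 12.7 normalized counts across wild type, against 141 ± 33.5 in knockout (SD, n = 5 and 6), a log2 fold change of 0.69 (SE 0.18). Regulators of the CDK1 switch were above 0 in 9 of 13 (median 0.35). Among them the phosphatase Cdc25a stood at 0.46 (SE 0.15) and Gtse1, a microtubule-associated protein of G2 phase, at 0.48 (SE 0.18). Subunits of the anaphase-promoting complex were split evenly, 8 above and 8 below 0, with a median of 0.01, and Cdc23 stood at 0.50 (SE 0.15). G1 and S phase cyclins and CDKs had a median of 0.10 with 9 of 11 above 0, and Ccnd1, cyclin D1, stood at 0.59 (SE 0.20).

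The inhibitors of CDKs were the cell cycle list with a median below 0, at −0.29. Of 7 tested genes 5 were below 0 and 2 above, and DESeq2 called 2 lower (284 among all genes). The list score averaged 0.02 ± 0.34 over wild-type and −0.02 ± 0.14 over knockout libraries (SD, n = 5 and 6), so the list as a whole hardly differed. Cdkn2d, the INK4 family inhibitor p19, had 122 ± 38.1 normalized counts across wild type, against 66.2 ± 11.6 in knockout (SD, n = 5 and 6), a log2 fold change of −0.84 (SE 0.21). Cdkn1c, the inhibitor p57, stood at −0.68 (SE 0.20). Genes of the MCM helicase and DNA replication, which act in S phase before mitosis, were above 0 in 24 of 30 with a median of 0.21. DESeq2 called 1 of these 30 higher, against 2.35% of all genes. Mcm2, a helicase subunit, stood at 0.53 (SE 0.14) and Rrm1, a subunit of ribonucleotide reductase, at 0.46 (SE 0.15). The replication score ran from −0.27 to 0.13 in wild type and from −0.29 to 0.39 in knockout, with replicates 9 and 12 highest again.

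Fold changes among the 33 genes varied with exon length. The 16 genes with exons longer than the median of 4677 bases had a median log2 fold change of 0.46, and the 17 others had 0.16. The order was loose. Of the 3 shortest genes, Ccnb2 and Plk1 stood at 0.14 and Cdc20 at 0.68, and Aurka, with 2531 bases, stood at 0.37. Of the longest, Cenpf stood at 0.52 and Mki67 at 0.60, and Kif23, with 7901 bases, stood at 0.22. Across the 33 genes, which share libraries and are not independent, Spearman's rho between exon length and log2 fold change came to 0.50. Across the 12469 tested genes with a gene model it was 0.27, and the median log2 fold change went from −0.17 in the shortest of 5 length classes to 0.15 in the longest. With each library's trend with length removed, an alternative added after seeing the data, the median of the 33 was 0.33 with 33 above 0 (50.9% of all genes), and rho was 0.20. The part of transcript length or RNA quality in these values was not tested beyond that removal.

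**Figure D4:**
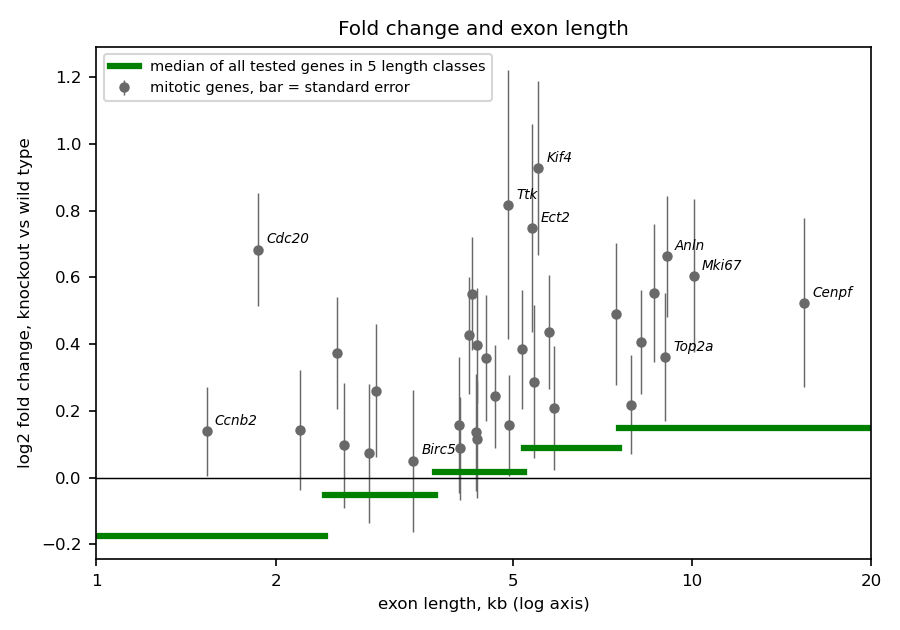
Points give the log2 fold change of the 33 mitotic genes, with standard error, against exon length in kb on a log axis; green bars give the median of all tested genes in 5 length classes, with the outer classes drawn only from 1 to 20 kb. The bars climb from −0.17 to 0.15, and each of the 33 mitotic genes lies above the bar of its class.

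Some values share exons with a neighbour. Whether counting used strand is not given in the sources used here. It is therefore not known whether reads of overlapping genes on opposite strands were kept apart. Exons of Ube2c overlap those of Tnnc2, the fast troponin C of skeletal muscle, over 22.8% of their length, and Tnnc2 had 1379 to 3840 normalized counts across wild type and 795 to 2245 in knockout. Kif20a shares 29.3% of its exon bases with Cdc23, Kif4 shares 15.1% with Pdzd11, Ccna2 shares 12.5% with Exosc9 and Prc1 shares 11.1% with Rccd1. Cdc20 shares 2.84% with the abundant lipid gene Elovl1, which had 1216 to 2403 normalized counts across wild type and 1694 to 3180 in knockout. The values of these mitotic genes, Cdc20 included, are uncertain to that extent.

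The median of the 33 genes stayed above 0 in each of the 24 alternatives run. It was lowest without knockout replicates 9 and 12 (0.14) and next with log10 depth as a covariate (0.24, 31 of 33 above 0, against 50.7% of all genes), which is partly confounded with genotype because the knockout libraries were mostly deeper. With that covariate the log2 fold changes of Kif4 (0.46), Anln (0.42), Bub1b (0.31), Mki67 (0.30), Kif11 (0.27) and Top2a (0.16) were also well below their values with all libraries and no covariate. Ttk (0.039) and Cenpf (0.0062) fell close to 0, and Hmmr (−0.07) and Nusap1 (−0.12) lay below 0. Cdc20 (0.67), Ccnb1 (0.41) and Tpx2 (0.25) changed little, though the limma adjusted p of Cdc20 was 0.892 with the covariate. Cdk1 (0.21), Cdca8 (0.50), Cenpa (0.37) and Ube2c (0.22) were higher with it. The 7 libraries with 3125366 to 7602952 reads were 4 wild type (replicates 2, 4, 5 and 6) and 3 knockout (replicates 7, 8 and 9). Knockout replicates 8 and 9 (7602952 and 7097436 reads) were still deeper than these wild-type libraries (3334072 to 5853454). In the 7 libraries, which include knockout replicate 9, the median of the 33 genes was 0.31 with 33 above 0, against 51.4% of all genes.

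**Figure D5:**
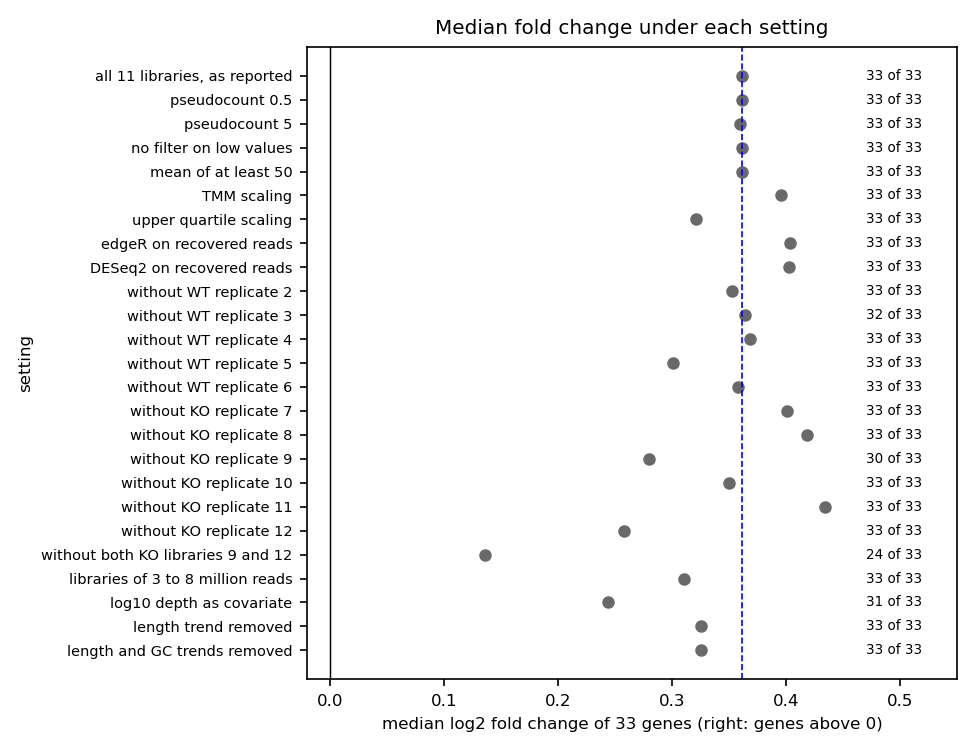
Each point is the median log2 fold change of the 33 mitotic genes under 1 setting, with the number of genes above 0 at the right; the dashed line is the value with all 11 libraries, 0.36. The value without knockout replicates 9 and 12, 0.14 with 24 of 33 genes above 0, is the lowest shown.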

How the data were processed

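Messenger RNA of 11 skins was sequenced. The submitters' processing notes name GRCm38, DESeq2 1.8.1, TopHat2 2.0.8 and featureCounts 1.4.6. Neither the step each served nor the annotation or use of strand is given in the sources used here. The deposited signal is a normalized count, the reads of a gene over the size factor of its library, as the values themselves show. All values (100% within 0.01) were whole multiples of the value of 1 read, so whole reads were recovered. Every pair of libraries in a group differed beyond sampling noise (chi-square over its degrees of freedom at least 4.74). A floor of 3 reads equals 1.04 to 13.5 normalized counts.

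The main test was limma 3.58.1 (R 4.3.3, moderated variances with a mean-variance trend) on log2(value + 1) wherever the mean reached 10, with Benjamini-Hochberg adjustment and a threshold of 0.05. Recovered reads were also tested with DESeq2 1.42.0 and edgeR 4.0.16. In counts simulated for this comparison (13215 genes, drawn independently), limma found 57% of true changes of 1 on the log2 scale and 96% of those of 2. In the same simulation edgeR found 63.3% and 98% of these, and DESeq2 72.4% and 98%. DESeq2 called 25 unchanged genes, and limma and edgeR 6 each. Changes smaller than 1, where the log2 fold changes of all the mitotic genes lie, were not simulated. Exact permutation tests (two-sided, unadjusted) of the 17 genes given in full ran from p = 0.00649 (Cdc20, whose groups do not overlap) to 0.844 (Birc5). Positions and exon lengths come from GENCODE M21 on GRCm38, found for 94.4% of tested genes.

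Values in every library are given for 17 of the 33 genes by a rule: 1 or 2 genes of each role, genes whose groups do not overlap and the 2 lowest and 2 highest fold changes. Of each of 22 further lists, at most the 2 genes of smallest p are named. Those named beside a role, a neighbour or a length were chosen with their values seen. The 33 genes, roles, lists, tests and alternatives were chosen with earlier results of these data known. Other alternatives varied the pseudocount, filter, scaling, libraries and a depth covariate, and removal of length or length and GC trends was added after seeing the data. The submitters call the samples biological replicates.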

Additional observations from a re-analysis of the deposited data

Results flagged for a closer look

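Within the groups of 5 and 6 libraries, 2 of 68 checks of a group found a library far from the others, where chance alone gives about 1 in 20. Anln in wild-type replicate 4 stood at 230 normalized counts, while the rest of its group held 174 to 179. Ccnb2 in wild-type replicate 6 stood at 276, against 200.1 to 215 in the others.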

How the results depend on the processing

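No paired analysis was possible because the groups share no replicate number. Among all genes tested, 2 passed in limma with all libraries, against 4 in edgeR, 576 in DESeq2, 1 with the length trend removed, 1 with length and GC trends removed, and 2 to 740 when 1 library was left out, the highest without wild-type replicate 4. Among the 33 mitotic genes, 0 passed in limma with all libraries, 3 in DESeq2 and 0 to 3 when 1 library was left out, the 3 again without wild-type replicate 4 (Anln, Cdc20 and Kif4). The median log2 fold change was 0.26 to 0.43 when 1 library was left out. For the 17 genes given in full, 395 of 408 values kept their direction and side of the threshold over the 24 alternatives, though not always their size. In the 7 libraries with 3125366 to 7602952 reads the log2 fold changes of Kif4 (0.58), Anln (0.42), Mki67 (0.38), Kif11 (0.31), Ttk (0.27), Top2a (0.23) and Cenpf (0.16) were smaller than with all libraries, and those of Cdk1 (0.26), Birc5 (0.16) and Cdca3 (0.16) larger. Without knockout replicates 9 and 12, Bub1b stood at 0.35, Ccnb1 and Cenpf at 0.25, Kif11 at 0.24, Top2a at 0.12, and Tpx2 and Aurkb at 0.09. In the same setting Birc5 stood at −0.18, Cdca3 at −0.17, Cdk1 at −0.0033 and Plk1 at −0.080. Leaving out 1 library gave −0.10 to 0.17 for Birc5 (below 0 without wild-type replicate 3, −0.01, or knockout replicate 9) and −0.063 to 0.19 for Cdca3. The cause of these shifts was not tested. Depth limits the shallow wild-type replicate 3 most.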
